A study of Mus musculus with 8 samples.

Results

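The genes described here encode subunits of the voltage-gated sodium channel. They were taken by symbol from a table of 24155 genes as Scn1a, Scn2a, Scn3a, Scn7a, Scn8a, Scn9a, Scn2b and Scn3b, and all 8 were listed. Of these, 7 had enough counts to be among the 18102 genes tested, and Scn9a did not. The symbols were chosen with earlier results of the same data known, so the share of them that changed is a description and not independent evidence.

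The cells were primary mouse oligodendrocyte progenitors, immunopanned (captured on antibody-coated dishes) from male and female pups at postnatal day 7. All cultures, controls included, were Ehmt1fl/fl;Ehmt2fl/fl, with floxed copies of 2 genes that encode partner methyltransferases of histone H3 lysine 9, and all grew in SATO medium with the mitogens PDGF-AA (10 ng/mL) and, at 20 ng/mL, bFGF. The cKO group is 4 cultures infected with Ad-RFP-iCre, an adenovirus for red fluorescent protein and the Cre recombinase that cuts out floxed DNA. The control group is 4 cultures infected with Ad-RFP, which lacks Cre. The multiplicity of infection was 10, virus was left on for 6 hours, and RNA was taken 72 hours after infection, so the loss of both genes is acute and cannot be assigned to either alone. Each group has replicates 1, 3, 4 and 6, named after batches that hold 1 library of each group. The labels do not say whether batches came from separate animals, so p-values measure the spread between these libraries, which may be partly technical.

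Voltage-gated sodium channels open on depolarization and let sodium into the cell, which gives the rising phase of the action potential in neurons. A large alpha subunit forms the pore, the voltage sensors and the inactivation gate. Small beta subunits, single-pass membrane proteins with an immunoglobulin fold, change the gating and surface level of the alpha subunit and also act in cell adhesion. Oligodendrocyte progenitors are known to carry voltage-gated sodium currents and to receive synaptic input from neurons, and these currents decline as the cells mature.

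Ehmt1 and Ehmt2 were lower in every cKO library than in any control library, which fits the labels. Ehmt1 was at 36.1 to 45.7 CPM (estimated counts scaled to the library total after TMM adjustment) in cKO libraries and 88.8 to 100.2 CPM in control libraries. Ehmt2 was at 51.7 to 64.5 CPM in cKO libraries and 154 to 196 CPM in control libraries. Total counts per library ran from 43542742 to 65374488. Mitochondrially encoded genes took 3.0% to 3.63% of counts in cKO libraries and 2.42% to 3.24% in control libraries, higher in cKO in 4 of 4 pairs. The most abundant gene of rRNA biotype took 6.61% to 9.13% in cKO libraries and 7.91% to 10.1% in control libraries, lower in cKO in 4 of 4 pairs. The part of these shares in the results was not tested. Progenitor markers were abundant, with the 10 on the list summing to 8132 to 12184 CPM in cKO libraries and 8852 to 13528 CPM in control libraries, lower in cKO in 4 of 4 pairs.

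Upstream sequences are shown first for the subunits with a promoter entry whose levels differed most. That of the gene that differed least is added, so that base composition can be compared. RefSeq promoter entries (GRCm38.p6, the mm10 assembly) were found for 6 of the 8 genes, and not for Scn3a and Scn3b. Scn2a and Scn8a have 2 annotated starts each. Each line below gives the 250 bases before the RefSeq start on the gene's own strand, with every CpG dinucleotide in capitals. RefSeq starts need not equal the gene coordinates given further on. The windows of Scn8a lie inside its span of 100869858 to 101045938, and that of the downstream Scn2a start lies inside the Scn2a span. For Scn8a, "upstream" therefore means the first of its RefSeq starts. Scn7a and Scn9a were the lowest at baseline and had the largest ratios. Scn2a had a larger change than Scn1a, Scn3a and Scn8a, and Scn8a had the smallest. Scn3b, which has no entry, had a larger change than Scn2a.
Scn7a, chr2:66784911-66785160, minus strand: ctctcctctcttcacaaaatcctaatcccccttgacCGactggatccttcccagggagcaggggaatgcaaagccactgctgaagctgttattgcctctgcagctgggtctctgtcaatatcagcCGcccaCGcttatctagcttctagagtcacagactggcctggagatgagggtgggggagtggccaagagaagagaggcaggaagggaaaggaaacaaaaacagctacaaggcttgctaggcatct
Scn9a, chr2:66634963-66635212, minus strand: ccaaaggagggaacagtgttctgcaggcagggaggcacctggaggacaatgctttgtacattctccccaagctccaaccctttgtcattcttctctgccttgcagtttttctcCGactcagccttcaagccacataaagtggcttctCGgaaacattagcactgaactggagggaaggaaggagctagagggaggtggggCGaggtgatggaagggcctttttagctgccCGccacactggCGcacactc
Scn2a upstream start, chr2:65620519-65620768, plus strand: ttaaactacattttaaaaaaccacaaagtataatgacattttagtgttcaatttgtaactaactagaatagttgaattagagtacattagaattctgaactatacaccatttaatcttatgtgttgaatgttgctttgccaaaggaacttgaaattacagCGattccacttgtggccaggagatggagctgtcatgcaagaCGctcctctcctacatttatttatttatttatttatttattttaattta
Scn2a downstream start, chr2:65668436-65668685, plus strand: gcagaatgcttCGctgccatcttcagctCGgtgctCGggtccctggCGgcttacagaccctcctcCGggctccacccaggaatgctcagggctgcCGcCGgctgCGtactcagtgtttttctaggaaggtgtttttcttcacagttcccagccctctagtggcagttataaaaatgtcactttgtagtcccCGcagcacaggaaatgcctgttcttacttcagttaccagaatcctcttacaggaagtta
Scn8a upstream start, chr15:100870395-100870644, plus strand: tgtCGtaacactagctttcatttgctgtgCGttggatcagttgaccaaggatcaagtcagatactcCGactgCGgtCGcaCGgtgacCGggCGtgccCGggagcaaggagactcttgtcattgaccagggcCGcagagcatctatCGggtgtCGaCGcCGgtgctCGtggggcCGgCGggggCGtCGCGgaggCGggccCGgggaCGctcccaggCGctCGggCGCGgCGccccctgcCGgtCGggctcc
The Scn7a window held 3 CpG, the Scn9a window 5, and those of Scn2a 2 and 9. The Scn8a window held 30 CpG, more than 94.1% of the 32851 RefSeq promoter windows of the same length, whose median was 6. Scn1a and Scn2b had 4 and 1 CpG, and the downstream start of Scn8a had 9. Exact matches were sought on both strands for GGGCGG, the core of a GC box, which occurs in 32.7% of all the windows. Of the 8 windows only that of Scn7a held it. TATAAA, present in 12.4% of all windows, was found only at the downstream start of Scn2a. The left and right parts of the element bound by the neuronal gene repressor REST, TTCAGCACC and GGACAGCGC, occur in 0.301% and 0.304% of all windows and in 0 of the 8. These are letter matches in a short window and say nothing of what binds there.

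All 8 genes had a higher level in the cKO library than in the control library of the same batch in 4 of 4 pairs. Of all 24155 listed genes, 17.0% did so, and of all tested genes 19.5%. In edgeR's quasi-likelihood fit with the batch as a block, all 7 tested members were past a Benjamini-Hochberg adjusted p of 0.05 and higher in cKO. Of all tested genes 20.5% were called, 10.0% higher and 10.4% lower. The median log2 fold change (cKO over control) was 0.48 over the 7 members and -0.01 over all tested genes. Scn7a passed the count filter mainly through its cKO libraries, so its presence among the tested genes favours a rise. The other 6 were above 3 CPM in every library. Without the block, when libraries of different batches are set against each other, 0 of the 7 passed, as did only 3 genes of all (0.0166%). In that edgeR fit Scn2a, Scn7a and Scn3b had an unadjusted p under 0.05 (0.00211, 0.00318 and 0.0489), a level that 4.93% of all genes reached. From here on "rose" and "fell" mean past an adjusted p of 0.05 in the fit with the block, and errors of log2 fold changes are SE.

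**Figure D1:**
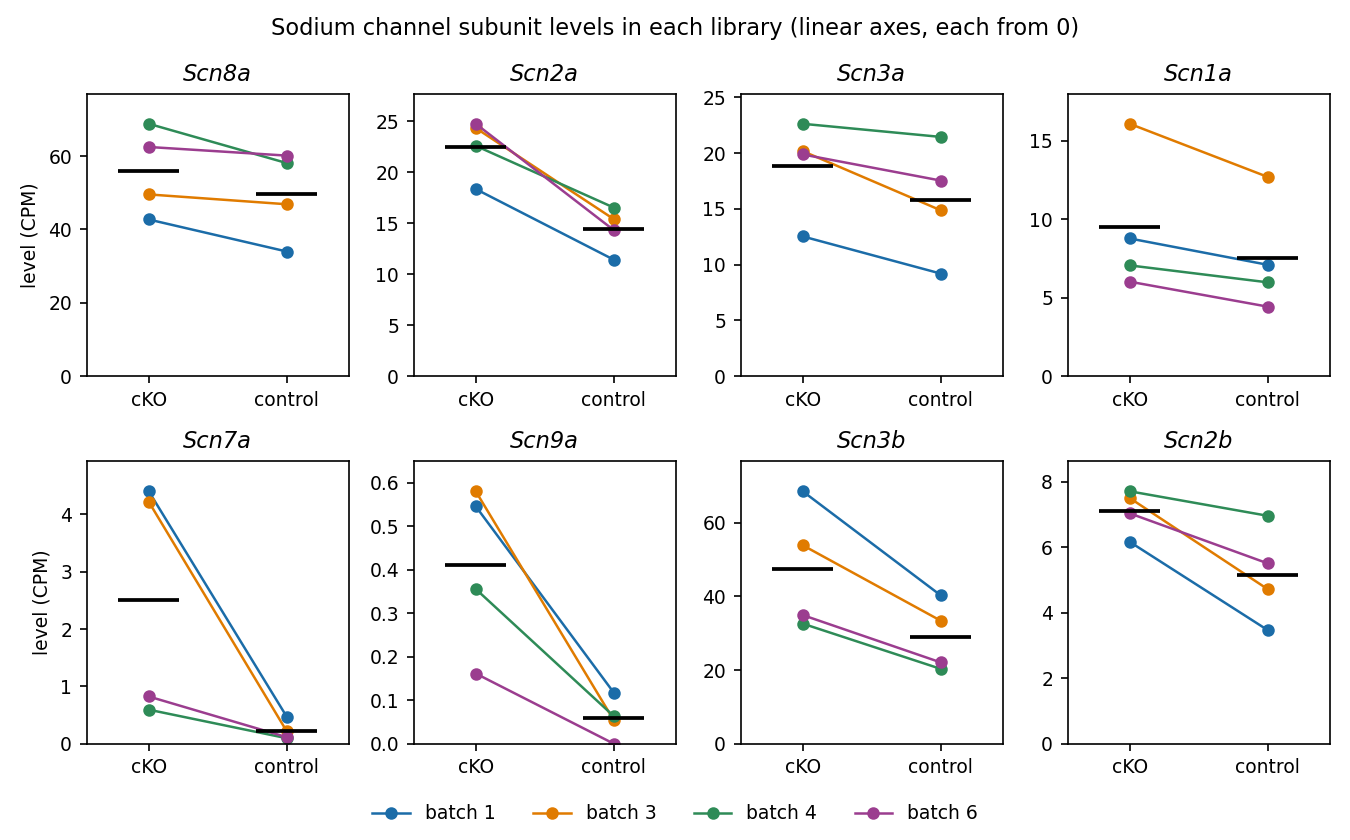
Level of each sodium channel subunit gene in CPM (linear axes from 0) in cKO libraries, left, and control libraries, right. Lines join the 2 libraries of a batch and black bars are group means (n = 4). Every line slopes down from cKO to control, while batches differ from each other by as much as the groups do for most genes.

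Scn8a encodes the pore of mature nodes of Ranvier and axon initial segments in neurons. The gene lies on chromosome 15 (100869858 to 101045938, plus strand, mm10, protein-coding). Its levels in batches 1, 3, 4 and 6 were 42.7, 49.6, 68.8 and 62.5 CPM in cKO libraries, against 34.0, 46.9, 58.1 and 60.1 CPM in control libraries. The groups overlapped widely, and batch 1 was lowest in both. Scn8a rose by 0.18 ± 0.05 on the log2 scale, or 1.13-fold, with an edgeR adjusted p of 0.0289. Without the pair of replicate 1 or of replicate 4 the adjusted p was 0.116 in each case.

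Scn2a encodes the early pore of developing axons, later partly replaced by the Scn8a product in myelinated fibres. It lies on chromosome 2 (65620771 to 65767447, plus strand). Its levels in batches 1, 3, 4 and 6 were 18.4, 24.3, 22.6 and 24.8 CPM in cKO libraries, against 11.4, 15.4, 16.5 and 14.3 CPM in control libraries. Every cKO library was above every control library. The log2 fold change was 0.64 ± 0.06, or 1.56-fold, with an edgeR adjusted p of 0.000119, and 0.379 with group alone. It stayed past the threshold under every alternative tried with the block.

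Scn3a encodes a pore that is high in embryonic brain and declines after birth, and Scn1a one that is prominent in inhibitory interneurons. Scn3a (chromosome 2, 65457118 to 65567627, minus strand) was at 12.5, 20.2, 22.6 and 19.9 CPM in cKO libraries of batches 1, 3, 4 and 6, against 9.19, 14.9, 21.4 and 17.5 CPM in control libraries. It rose by 0.28 ± 0.07 (edgeR adjusted p = 0.0205), with within-pair log2 differences from 0.08 in batch 4 to 0.44 in batch 1. Leaving out the pair of replicate 1 or replicate 3 ended the call (adjusted p = 0.0846 and 0.111). Scn1a (chromosome 2, 66270778 to 66440840, minus strand) was at 8.77, 16.1, 7.06 and 6.02 CPM in cKO libraries, against 7.10, 12.7, 5.98 and 4.43 CPM in control libraries. Batch 3 was highest in both groups. Scn1a rose by 0.33 ± 0.07 (edgeR adjusted p = 0.00957), and without the pair of replicate 3 its adjusted p was 0.0566.

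Scn7a encodes an atypical alpha subunit, called Nax, that is not opened by voltage like its relatives and senses extracellular sodium in glia of sodium-monitoring brain regions. It had the largest fold change of the tested members. It lies on chromosome 2 (66673425 to 66784914, minus strand). Its levels in batches 1, 3, 4 and 6 were 4.4, 4.22, 0.593 and 0.823 CPM in cKO libraries, against 0.471, 0.217, 0.0952 and 0.114 CPM in control libraries. The groups did not overlap, and within cKO the libraries of batches 1 and 3 were well above those of batches 4 and 6. In counts these were 250, 189, 30 and 51 in cKO libraries, against 24, 12, 6 and 6 in control libraries. The log2 fold change was 3.41 ± 0.26, with an edgeR adjusted p of 3e-05. Within pairs it ran from 2.26 in batch 4 to 4.07 in batch 3. With group alone the adjusted p was 0.420.

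Scn9a encodes a pore best known from pain-sensing neurons and was close to undetected in control cells. It lies on chromosome 2 (66480080 to 66634962, minus strand). Its estimated counts in batches 1, 3, 4 and 6 were 31.5, 26.5, 18.2 and 10.1 in cKO libraries, against 6.07, 3.03, 4.06 and 0 in control libraries. A count of 0 allows up to 0.0568 CPM in that library, taken as 3 counts and covering counting error only. The cKO libraries lay between 0.161 and 0.581 CPM, all above the highest control library at 0.118 CPM. The gene missed the filter on low counts. With no filter, edgeR with the block gave a log2 fold change of 2.81 ± 0.48 and an adjusted p of 0.000923, where 8.39% of 24155 genes were called higher.

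Of the members tested, Scn2a and Scn7a were the ones whose cKO range lay wholly above the control range, a pattern seen in 2.4% of all tested genes. No member showed the reverse, which 1.28% did.

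The beta subunit genes lie on chromosome 9. The Scn3b protein associates with the pore without a covalent bond and the Scn2b protein through a disulphide bridge. Scn3b (40269217 to 40291618, plus strand) was at 68.6, 53.9, 32.6 and 34.9 CPM in cKO libraries of batches 1, 3, 4 and 6, against 40.3, 33.4, 20.3 and 22.1 CPM in control libraries. The groups overlapped because batches 1 and 3 were high in both, but the within-pair log2 differences were close together, from 0.66 to 0.77. Scn3b rose by 0.70 ± 0.04, or 1.63-fold (edgeR adjusted p = 4.45e-06). Scn2b (45117782 to 45130070, plus strand) was at 6.17, 7.50, 7.71 and 7.04 CPM in cKO libraries, against 3.47, 4.72, 6.96 and 5.51 CPM in control libraries. Here cKO libraries were alike and control libraries differed. Scn2b rose by 0.48 ± 0.11 (edgeR adjusted p = 0.0145), with 0.15 in batch 4 and 0.82 in batch 1. Leaving out the pair of replicate 1 or replicate 3 gave adjusted p values of 0.0585 and 0.0862.

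**Figure D2:**
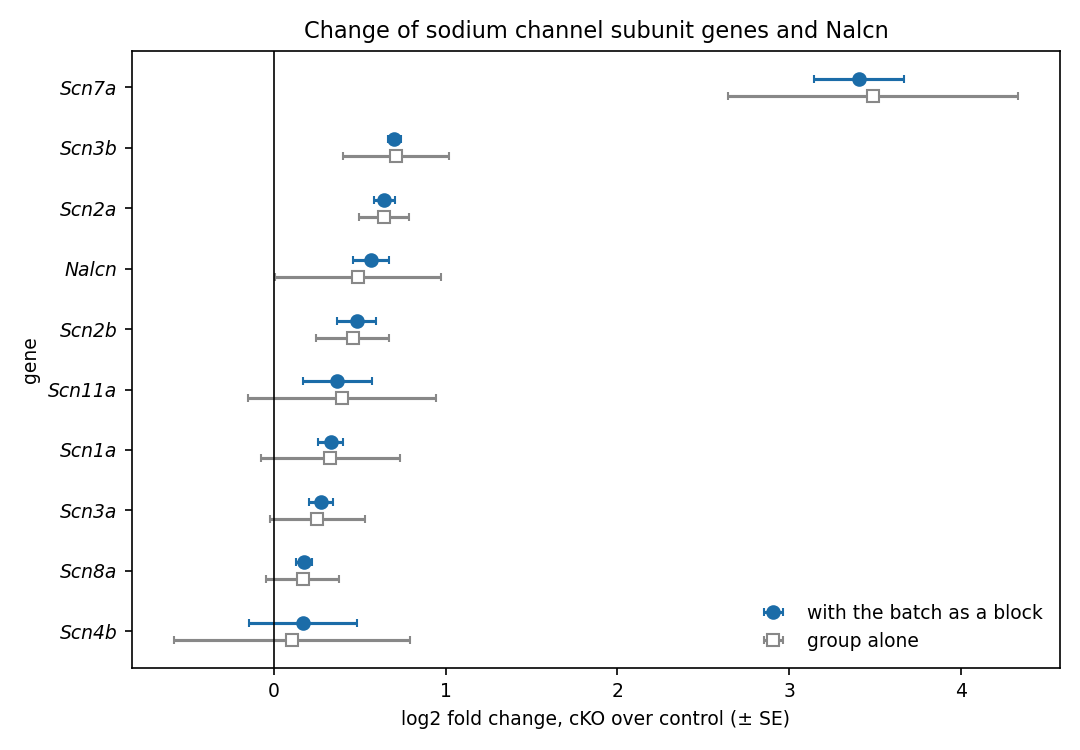
Log2 fold change of cKO over control ± SE for the 7 tested members, Scn11a, Scn4b and Nalcn, with the batch as a block (filled circles) and with group alone (open squares). The estimates nearly coincide between fits while the SE is wider with group alone, 0.40 against 0.07 for Scn1a.

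Among related genes outside the members, Scn11a, a pore of pain-sensing neurons, did not pass (0.37 ± 0.20, adjusted p = 0.223 in edgeR). Scn4b, which encodes a beta subunit, was at 0.333 CPM in cKO and 0.313 CPM in control libraries on average and did not pass either (0.17 ± 0.31, edgeR adjusted p = 0.754). Nalcn, a voltage-independent sodium leak channel, rose by 0.56 ± 0.10 (64.5 ± 27.1 CPM in cKO and 45.9 ± 26.0 CPM in control libraries, SD, n = 4; edgeR adjusted p = 0.0183). Its call was lost without the pair of replicate 1 (adjusted p = 0.0613) and with no filter on low counts (0.0537).

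To compare levels between genes, CPM were divided by the length of all annotated exons of the gene (GENCODE M21). On this scale Scn3b was the most abundant member, at 8.70 ± 3.11 CPM per kb in cKO and 5.31 ± 1.74 CPM per kb in control libraries (SD, n = 4). Scn8a was next, at 3.55 ± 0.75 and 3.16 ± 0.76 CPM per kb in cKO and control libraries. In control libraries the ranges of Scn3b and Scn8a overlapped slightly, and in cKO libraries they did not. Scn2a (1.77 ± 0.23 CPM per kb), Scn2b (1.53 ± 0.15) and Scn3a (1.51 ± 0.35) followed in cKO libraries, with overlapping ranges. In control libraries the order among these was Scn3a (1.26 ± 0.41), Scn2a (1.13 ± 0.17) and Scn2b (1.11 ± 0.31), again with overlapping ranges. Scn1a was lower at 0.851 ± 0.408 CPM per kb in cKO and 0.677 ± 0.323 in control libraries, Scn7a was at 0.342 ± 0.284 in cKO and 0.0305 ± 0.0236 in control libraries, and Scn9a was last in both groups. The range of Scn1a overlapped those of Scn2a, Scn2b and Scn3a in both groups, only just for Scn2a in cKO libraries, and that of Scn7a only in cKO libraries. Scn9a lay below every other member with no overlap.

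Summed over the 6 pore genes, transcripts per exon length came to 8.05 ± 1.01 CPM per kb in cKO and 6.27 ± 1.21 CPM per kb in control libraries (SD, n = 4). The sum was higher in cKO in 4 of 4 pairs, by 0.37 ± 0.14 on the log2 scale (SD over pairs). The 2 beta genes summed to 10.2 ± 3.0 CPM per kb in cKO and 6.42 ± 1.4 CPM per kb in control libraries. Their log2 difference was 0.65 ± 0.10 (SD over pairs), also higher in 4 of 4 pairs. The ratio of beta to pore transcripts was 1.32 ± 0.56 in cKO and 1.10 ± 0.50 in control libraries, and it was higher in cKO in every pair. Scn8a supplied 44.0% ± 6.62 of the pore sum in cKO and 50.1% ± 4.74 in control libraries, and its share was lower in cKO in all 4 pairs. Scn2a supplied 22% ± 1.39 in cKO and 18.2% ± 1.37 in control libraries, higher in 4 of 4 pairs. The share of Scn7a was 4.50% ± 4.01 in cKO and 0.571% ± 0.581 in control libraries. An exact paired permutation test (2-sided) gave p = 0.125 for each of these differences, the smallest that 4 pairs allow, or 0.161 adjusted over the 9 sums and shares tested.

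**Figure D3:**
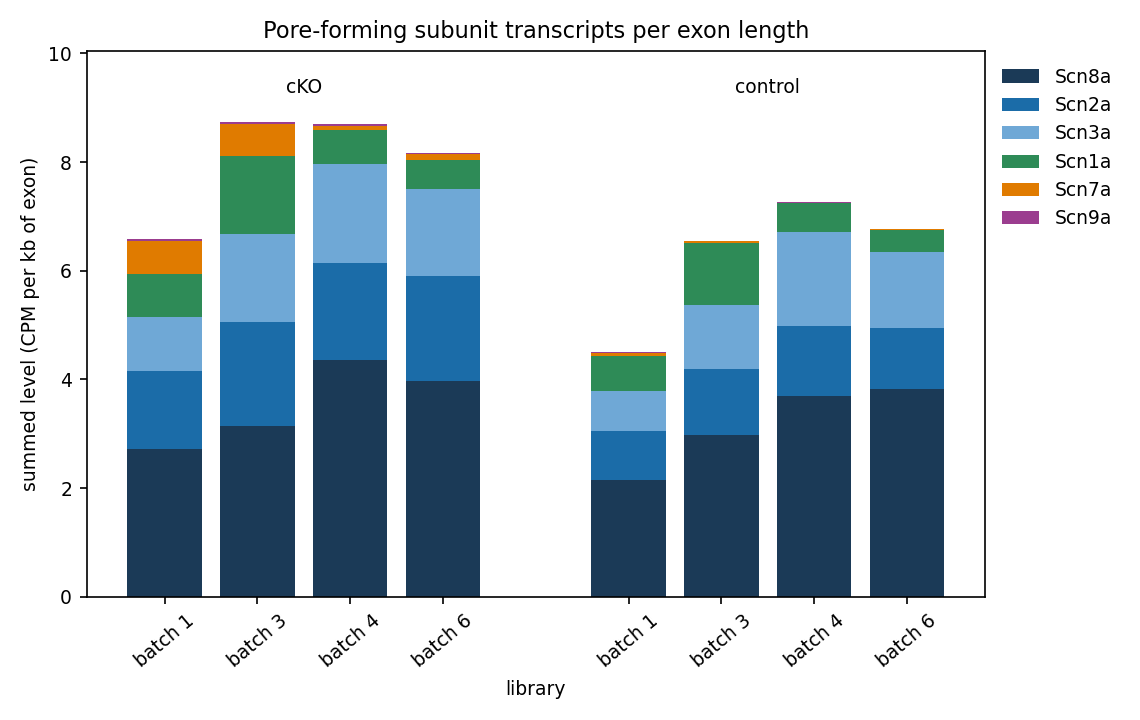
Summed level of the 6 pore-forming subunit genes in CPM per kb of exon in each library, stacked by gene, cKO libraries left and control libraries right. Scn8a is the largest part in every library, and the Scn7a part is visible in cKO batches 1 and 3.

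Estimated counts of Scn1a, Scn2a, Scn3a and Scn9a are not exact whole numbers in at least 7 of 8 libraries, and such values can arise when reads are divided among similar genes. Exchange among these 4 relatives cannot change their sum, which was 40.2, 61.2, 52.6 and 50.8 CPM in cKO libraries of batches 1, 3, 4 and 6, against 27.8, 43.0, 44.0 and 36.3 CPM in control libraries. The sum was higher in cKO in every pair, by 0.26 to 0.53 on the log2 scale. All 8 deposited counts of Scn7a were exactly whole. Of genes annotated on the opposite strand, Gm13630 overlaps Scn1a and had 49.0 counts over the 8 libraries against 3622 for Scn1a, and further models overlap Scn3a, Scn9a, Scn2b and Scn3b. No source used here says if counting was by strand, so reads from a gene and from its partner could be mixed in these counts.

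The genes Scn3a, Scn2a, Scn1a, Scn9a and Scn7a form a cluster of 1328 kb on chromosome 2 (65457118 to 66784914). Between the channel genes lie Csrnp3, a nuclear transcription factor gene, Galnt3, a mucin-type glycosylation enzyme gene, and Ttc21b, a gene of transport within cilia. Galnt3 rose by 0.47 ± 0.14 (edgeR adjusted p = 0.0392; 2.19 CPM in cKO and 1.58 CPM in control libraries on average). That call was lost without the pair of any 1 batch (adjusted p = 0.0548 to 0.157). Csrnp3 (0.10 ± 0.06) and Ttc21b (0.08 ± 0.05) did not pass. Within 500 kb outside the cluster, Grb14, an adaptor of the insulin receptor, rose by 0.68 ± 0.10 and Cobll1 (0.13 ± 0.05) did not pass. Slc38a11 had too few counts to be tested. So 2 of the 5 other genes tested in and beside the cluster rose and 0 fell, set beside 4 of 4 channel genes tested there. Of all tested genes 10.0% rose and 10.4% fell. The channel genes of the cluster share a locus and are not independent of each other.

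**Figure D4:**
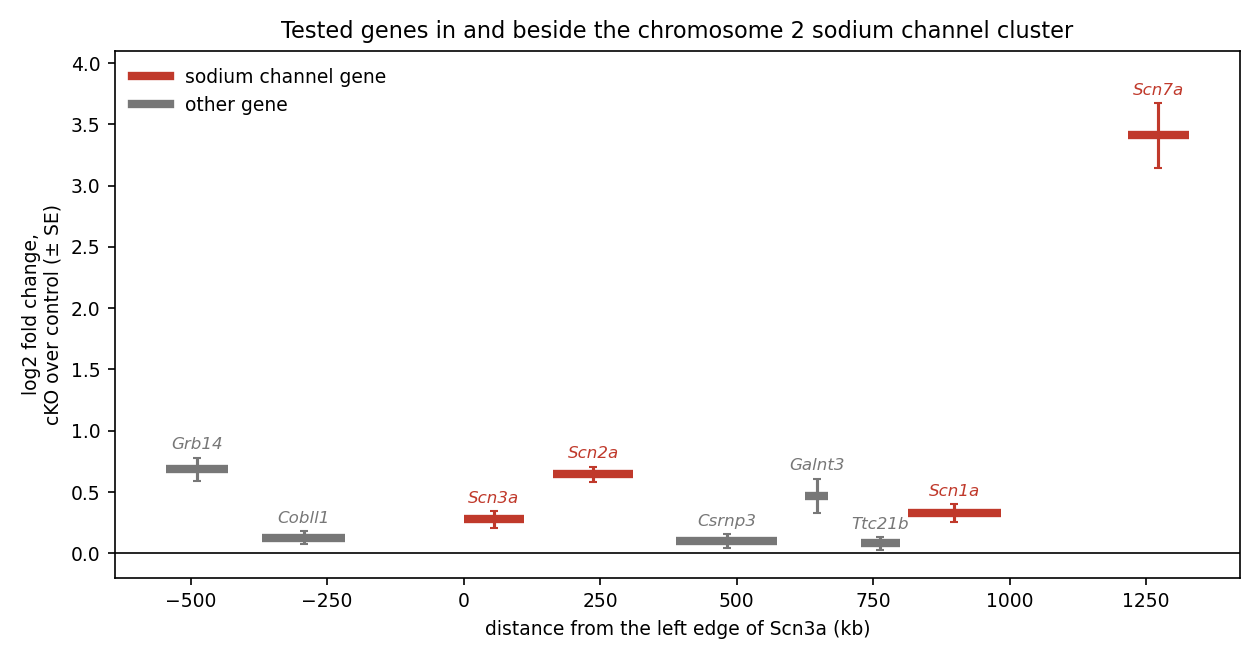
Log2 fold change of cKO over control ± SE for tested genes in and within 500 kb of the chromosome 2 sodium channel cluster, against distance in kb from the left edge of Scn3a. Thick bars span gene bodies. Scn7a, at one end of the cluster, stands at 3.41 and the other genes at or below 0.68.

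Genes known to work with sodium channels were read beside the members. The lists, like the members, were chosen with earlier results of these data known, so a contrast between them is a description only. Over 6 lists of other subunits, partners and regulators, 56 genes were tested, of which 11 rose, 5 fell and 40 did neither. Their median log2 fold change was -0.03. Of all tested genes 10.0% rose and 10.4% fell, the shares to set beside each list count here and below. Fibroblast growth factor homologous factors and calmodulins, which bind the cytoplasmic tail of the pore, gave 4 rises and 0 falls among 7 genes. Fgf14 rose by 0.36 ± 0.07 (11.5 ± 1.55 CPM in cKO and 8.92 ± 0.75 CPM in control libraries, SD, n = 4) and Fgf12 by 0.23 ± 0.05. Calm2, which encodes calmodulin, rose by 0.12 ± 0.03. The Calm2 call was lost without the pair of replicate 1 or replicate 3 (edgeR adjusted p = 0.0704 and 0.131). Among 10 genes of the ankyrin and spectrin scaffold that anchors channels at the membrane, Sptbn4, the spectrin of nodes and axon initial segments, rose by 0.49 ± 0.10 (5.86 ± 3.38 CPM in cKO and 4.23 ± 2.61 CPM in control libraries), and 0 fell. Ank3, encoding the ankyrin that holds sodium channels, did not pass (0.06 ± 0.04), nor did Ank2 (-0.18 ± 0.06). Ank2 was called lower without the pair of replicate 6 (adjusted p = 0.00658), by limma-voom (0.0462) and by DESeq2 (0.0312).

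Adhesion and matrix genes that bind beta subunits or gather channels at nodes gave 1 rise and 2 falls among 11 tested. The shares over all tested genes were 10.0% and 10.4%. L1cam, an axonal adhesion molecule, rose by 1.72 ± 0.12. It was at 5.14, 6.61, 27.8 and 12.6 CPM in cKO libraries of batches 1, 3, 4 and 6, against 0.980, 2.33, 8.15 and 4.51 CPM in control libraries. The nodal adhesion gene Nrcam (-0.13 ± 0.03) and Ptprz1 (-0.11 ± 0.03), a receptor phosphatase of progenitors, fell, and Nfasc did not pass (0.23 ± 0.07, edgeR adjusted p = 0.0601). Nfasc was called higher with upper-quartile factors (0.0472), by limma-voom (0.0265), by DESeq2 (0.00663) and without the pair of replicate 6 (0.000425). Both falls were lost without the pair of replicate 3 or of replicate 4. Of 10 ubiquitin ligases, kinases and proteases that act on channel subunits, 0 rose and 3 fell. Nedd4, a ubiquitin ligase, fell by 0.18 ± 0.03 on the log2 scale (1202 ± 70.4 CPM in cKO and 1367 ± 85.2 CPM in control libraries, SD, n = 4). Fyn (-0.17 ± 0.03) and Prkca (-0.20 ± 0.05), both kinases, fell too. Nedd4l, another ligase of the list, did not pass (-0.07 ± 0.06, edgeR adjusted p = 0.462). Without the pair of replicate 4, 1 of the 3 falls was left in this list.

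Among 13 transcription and RNA regulators, 3 rose and 0 fell. Srrm4, a neural splicing factor, rose by 1.48 ± 0.14 and was at 2.41, 4.27, 2.51 and 4.31 CPM in cKO libraries of batches 1, 3, 4 and 6, against 0.804, 1.34, 0.904 and 1.84 CPM in control libraries. The groups did not overlap. Celf4, an RNA-binding protein of neurons, rose by 0.84 ± 0.11, with cKO libraries at 10.3 to 14.8 CPM and control libraries at 6.60 to 7.92 CPM. Rbfox1, a neuronal splicing factor, rose by 0.40 ± 0.10, a call that was lost without the pair of replicate 1, 3 or 4. Rest, the repressor of neuronal genes, named here after its values were seen, was at 36.3 to 47.1 CPM in cKO and 41.5 to 47.5 CPM in control libraries and did not pass (-0.06 ± 0.04, edgeR adjusted p = 0.364).

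**Figure D5:**
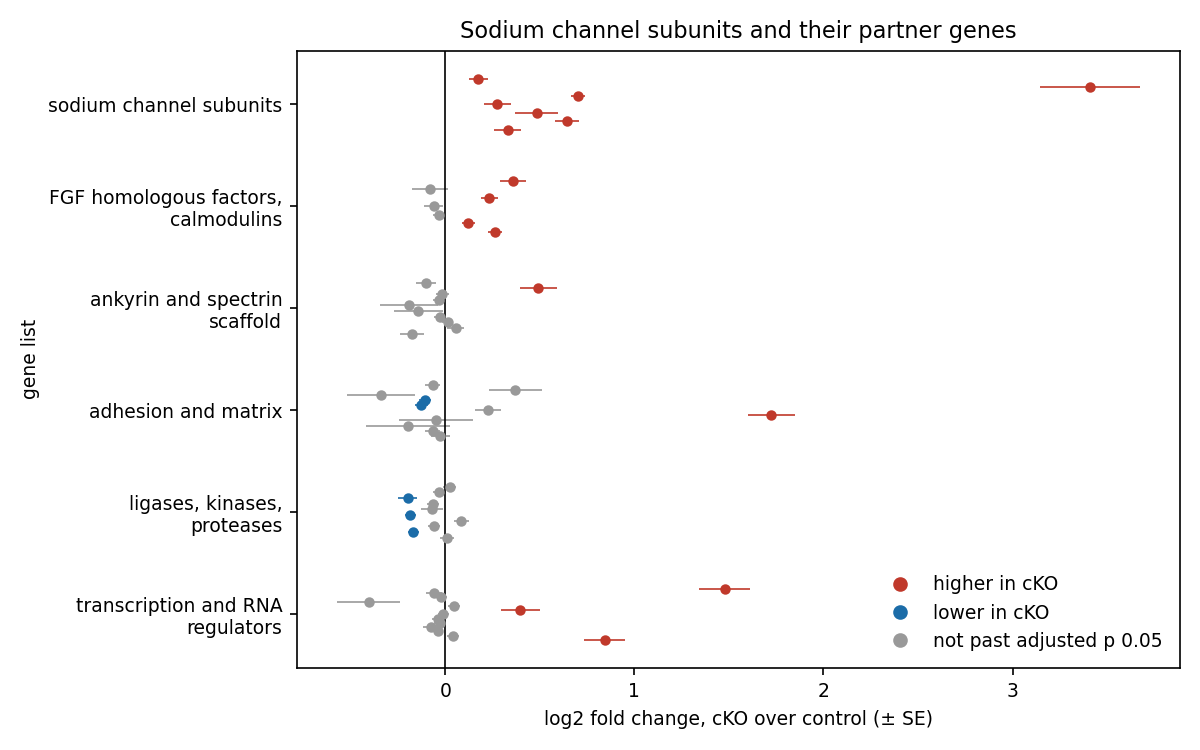
Log2 fold change of cKO over control ± SE for each tested member and each tested gene of 5 lists of partner and regulator genes (1 point a gene; red, higher; blue, lower; grey, not past an adjusted p of 0.05). Members and lists were chosen with earlier results of these data known, so the contrast between them is a description only. All 7 members lie right of 0, and most genes of the lists drawn lie near 0. The list of other subunits is not drawn. L1cam (1.72), Srrm4 (1.48) and Celf4 (0.84) lie further right than every member but Scn7a. Others, such as Sptbn4 (0.49) and Fgf14 (0.36), lie among the members, and Rbfox3 lies furthest left at -0.40.

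Sodium channel genes are abundant in neurons, so markers of neurons and of other cells were read beside them. Rises made up 10.0% and falls 10.4% of all tested genes, the shares to set beside the marker counts. In bulk RNA a change in the share of cells of a type and a change in RNA per cell cannot be told apart. Of 15 neuron markers, 14 were listed and 11 tested, and 6 rose and 0 fell, with the synaptic vesicle fusion genes Snap25 (1.52 ± 0.09) and Syt1 (0.84 ± 0.09) among them. The 5 that did neither include Tubb3, a neuronal tubulin (-0.0028 ± 0.13), and Rbfox3, the NeuN antigen, whose value (-0.40 ± 0.17) was lower in cKO in 4 of 4 pairs. The listed neuron markers summed to 318 to 506 CPM in cKO and 238 to 446 CPM in control libraries, higher in cKO in 4 of 4 pairs. The largest parts of that sum were Dcx, at 201 CPM in cKO and 167 CPM in control libraries on average, and Elavl3, at 99.9 and 88.5 CPM. Dcx rose (0.32 ± 0.08) and Elavl3 did not pass (0.17 ± 0.05). Of the transmitter-defining genes listed, Gad1, an enzyme of GABA synthesis, was at 1.05 to 2.36 CPM in cKO and 0.687 to 1.51 CPM in control libraries and did not pass (0.66 ± 0.25, edgeR adjusted p = 0.102). The others were near 0. Slc32a1 was at most 0.0793 CPM and at 0 in 1 cKO library, Slc17a7 was at most 0.271 CPM, and Gad2 at most 0.264 CPM. Of 10 tested markers of differentiated oligodendrocytes, 7 rose and 0 fell, among them Mag (0.63 ± 0.07) and Aspa (1.97 ± 0.21). That list summed to 368 to 3122 CPM in cKO and 286 to 2003 CPM in control libraries, higher in 4 of 4 pairs. Progenitor markers gave 1 rise and 2 falls among 10, including a fall of Pdgfra (-0.31 ± 0.03), the receptor for PDGF-AA. Of those calls, the rise was lost without replicate 3 and 1 fall without replicate 1 or 4.

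Astrocyte markers gave 2 rises and 3 falls among 9. Gfap (0.86 ± 0.17) and Aqp4 (0.62 ± 0.13) rose, while Slc1a3 (-0.28 ± 0.03), Sox9 (-0.31 ± 0.03) and Gja1 (-0.37 ± 0.06) fell. The list summed to 1150 to 2728 CPM in cKO and 1232 to 2930 CPM in control libraries, lower in cKO in 4 of 4 pairs. Slc1a3 was the largest part of that sum, at 944 CPM in cKO and 1137 CPM in control libraries on average, so the sum does not speak for each marker. Microglial markers summed to 13.6 to 17.6 CPM in cKO and 14.7 to 18.2 CPM in control libraries, with 1 of 2 tested genes higher. Markers of endothelial, mural and fibroblast-like cells summed to at most 9.57 CPM in cKO and 11.8 CPM in control libraries, with 2 of 7 tested genes higher and 0 lower. Schwann cell markers gave 1 rise and 2 falls among 4 and summed to 27.6 to 150 CPM in cKO and 30.7 to 183 CPM in control libraries, also lower in cKO in 4 of 4 pairs. The microglial and Schwann cell rises were lost when the pair of replicate 1, 3 or 4 was left out, leaving out any 1 pair left 1 Schwann cell fall, and without that of replicate 1, 3 or 6 the vascular list kept 1 rise. The part of these shifts in the sodium channel results was not tested.

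Levels of several members followed the batch. In both groups, Scn1a, Scn7a and Scn3b were higher in batches 1 and 3 than in batches 4 and 6, with no overlap, and Scn8a was lower there. The log2 difference between these sets of batches was 2.56 for Scn7a and 0.85 for Scn3b in cKO libraries, and 1.35 and 0.79 in control libraries. It was -0.51 for Scn8a in cKO and -0.57 in control libraries. Scn2a did not separate them in either group.

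Protein-coding genes whose log2 CPM followed each member most closely over the 8 libraries were sought among 11960 genes. The libraries share batches and groups, so high values of Pearson's r arise for many genes and are given as a description only. For Scn2a these were Nap1l2 (r = 0.982), Slc2a3 and Bhlhb9, and among those for Scn2b was Fam169a (r = 0.960). Scn7a was followed most closely by Atp5j2 (r = 0.988), Vgf and Neb, and Scn3b by Tusc3 (r = 0.990), Nt5e and Zbtb38. For Scn8a the nearest was Tcea2 (r = 0.993), for Scn3a Ten1 (r = 0.986) and for Scn1a Hmgxb4 (r = 0.988). Between members, r was highest for Scn7a with Scn3b (0.940) and for Scn3a with Scn8a (0.920), and lowest for Scn8a with Scn3b (-0.53).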

How the data were processed

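Polyadenylated RNA of 8 libraries was measured. Tools named in the submitters' processing notes are STAR, cutadapt, Partek and DESeq2, and the genome is mm10. Their versions, the annotation and the strand setting are not given in the sources used. The authors deposited estimated counts per gene without normalization, of which 52.0% have a fractional part. Coordinates are those of the table, with the end as its last base. They equal GENCODE M21 for 23200 of 23426 shared symbols, and that annotation gave exon lengths.

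Expected counts were rounded. Genes were kept by filterByExpr on group (minimum count 10), scaled by TMM and tested with edgeR 4.0.16 (glmQLFit, robust; glmQLFTest, 2-sided) in R 4.3.3, with the replicate number as a block and Benjamini-Hochberg adjustment over 18102 genes. CPM are of rounded counts; a prior count of 2 was added for log2 CPM. The block is in the model because the labels give both libraries of a number the same batch name. Libraries of the same number also deviated together from their group means, with correlations of 0.750 to 0.791, against at most 0.394 otherwise. No libraries of a group were duplicates. Alternatives were group alone, RLE and upper-quartile factors, other filters, limma-voom (limma 3.58.1), DESeq2 1.42.0 and each pair left out. The members and lists were chosen with earlier results of these data known. Named were all members, related channel genes, up to 4 genes a partner list and up to 2 a marker list by smallest p (further ones were named after their values were seen), neighbours on chromosome 2, and up to 3 genes of like profile. Intervals from counts of 0 cover counting error only. Some genes that this rule names are not reported here.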

Additional observations from a re-analysis of the deposited data

How the results depend on the processing

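The calls depended first on the replicate block. With no replicate block, 0 of 7 sodium channel subunit genes passed, and 1 gene of all was higher and 2 were lower, against 1817 and 1889 with the block. The fold changes of the members moved little, from 3.41 to 3.49 on the log2 scale for Scn7a and from 0.48 to 0.46 for Scn2b. Leaving out each pair in turn, 4 to 8 subunit genes were called higher and 0 lower, with 1127 to 1702 higher and 910 to 1730 lower genes in all. The lowest count of 4 was reached without replicate 1 (Scn3a, Scn8a and Scn2b lost) and without replicate 3 (Scn1a, Scn3a and Scn2b lost). Without replicate 6 Scn9a passed the filter and made the count 8. It did so through its cKO libraries, so its presence among the tested genes favours a rise. RLE and upper-quartile factors, limma-voom and DESeq2, each with the block, called the same 7, no filter added Scn9a, and a filter of 1 CPM in 4 libraries removed Scn7a from the test and left 6. No member changed direction under any of the 11 alternatives in which it was tested. Over 53 genes followed through the alternatives, 482 comparisons kept their side of the threshold, 85 lost a call, 9 gained one and 0 reversed. Counts on the short lists of partners and markers moved by over 1.5 times in many settings and are best read gene by gene. Depth limits Scn9a and, in control libraries, Scn7a.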
